A study of Mus musculus with 20 samples.

Results

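Liver RNA of 5 mice that breathed fine airborne particles (PM2.5) was compared with that of 5 mice that breathed filtered air, across all genes whose array signal lay above background. These 10 mice are 10 of the 20 of the study, chosen by the source named in their labels. All 20 were male ob/ob mice, which lack functional leptin, overeat and develop obesity and a fatty liver. The PM2.5 mice spent 6 hours per day in a particle exposure chamber for 2 weeks. The labels do not say whether the filtered-air mice spent the same hours in a chamber, so particles and chamber stay cannot be told apart. The other 10 mice drank metformin, 5 without and 5 with PM2.5, and the label of the former names no air. Age, the particle concentration, the hour of death and any pairing of mice are not given in the sources used here. Each mouse gave 1 array of whole liver, and mice are numbered 1 to 5 within a group in deposited order, so equal numbers pair no mice.

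The liver stores glucose as glycogen, makes and burns fat, clears foreign compounds and secretes most plasma proteins. Hormones, feeding, the day-night clock, metals and heat each act there on known sets of target genes. Inhaled fine particles act first on the lung, and the liver can then be reached by circulating signals or by what crosses into the blood. Leptin-deficient mice are a model of obesity with high insulin and fat-laden hepatocytes, and they lack the leptin signal itself.

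By limma's moderated test, PM2.5 and filtered-air livers differed in 648 of 10684 genes (6.07%) at a Benjamini-Hochberg adjusted p under 0.05. Of these, 334 were higher (3.13% of the genes tested) and 314 were lower (2.94%). Only such genes are said to have risen or fallen below, and every difference is PM2.5 minus filtered air on the log2 scale, ± its standard error. The median difference of all genes tested was 0.02, and among the called genes the medians were 0.74 for rises and -0.74 for falls. Counts and medians of gene lists below are to be read beside these shares and this median of all genes tested. At least a 2-fold difference was seen for 71 rises and 63 falls. For 428 of the 648 genes the groups did not overlap, against 7.45% of all genes tested. These were 224 rises (3.79% of all genes tested were higher without overlap) and 204 falls (3.66% were lower without overlap). Leaving out PM2.5 mouse 2 lowered the number of called genes to 206, and leaving out PM2.5 mouse 5 to 252. It became 286, 383 or 373 when filtered-air mouse 1, 2 or 3 was dropped, and 1416 with array weights.

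Array medians of the 10 livers lay between 4.77 and 4.92. Within groups, arrays correlated across the genes tested at 0.989 to 0.994 in filtered air and 0.986 to 0.993 with PM2.5. The median of the negative-control probe sets did not differ by an exact permutation test (two-sided p = 0.381, smallest possible 0.00794). The negative controls had a mean 95th percentile of 8.36, and 48.8% of the genes tested were brighter. The size of a difference can be understated where a group lies near their mean median of 4.49. Hepatocyte markers stood at the top of the range, with a mean over 14 genes of 17.12 to 17.18 in filtered air and 17.19 to 17.27 with PM2.5. Albumin (Alb) was at 18.90 ± 0.03 and 18.92 ± 0.05 (SD, n = 5 mice per group).

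**Figure D1:**
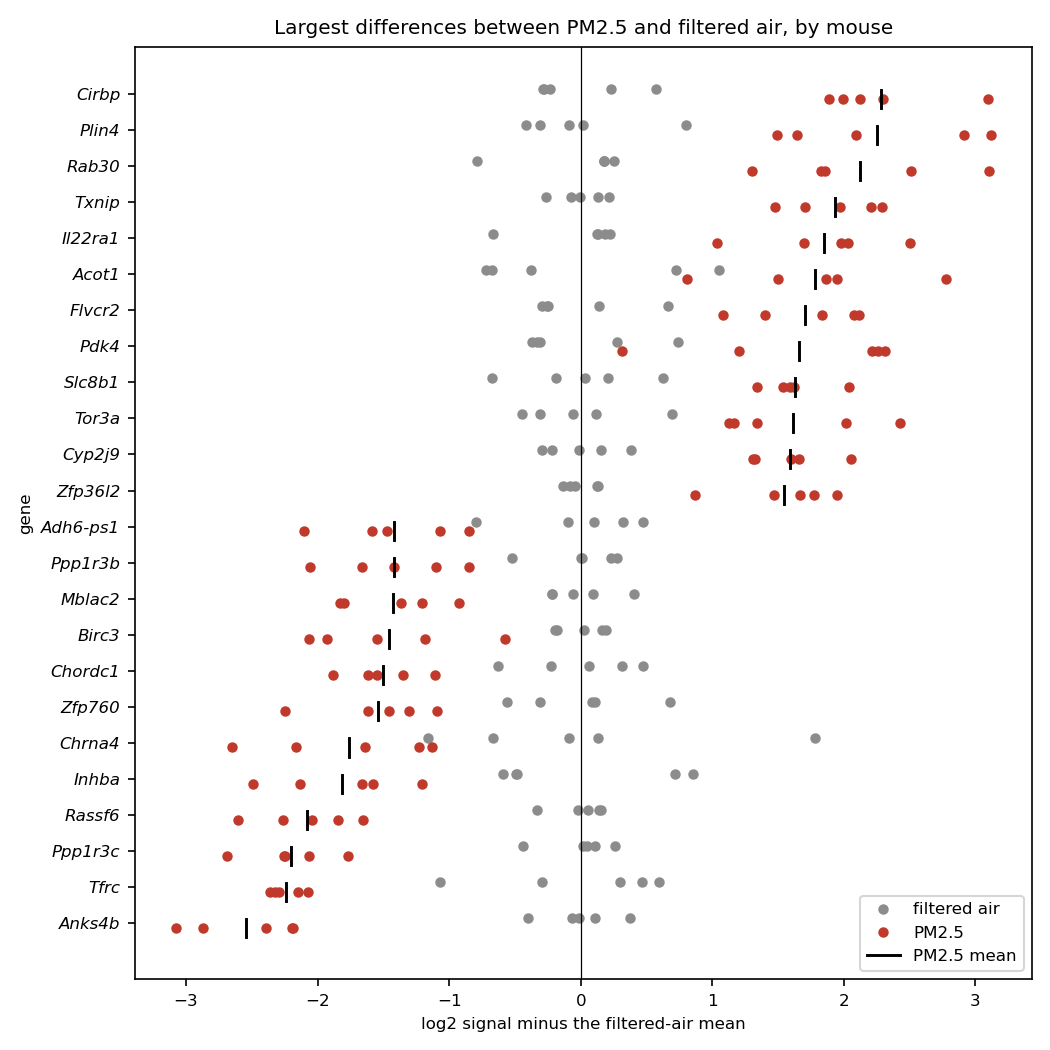
Log2 signal of each mouse (points) minus the filtered-air mean, for the 12 largest rises and the 12 largest falls outside the lipogenic, cholesterol and glucocorticoid genes and predicted or provisional names. The black bar is the mean of the 5 PM2.5 mice. Except in Pdk4, Acot1 and Chrna4, the red and grey points of a gene do not overlap.

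Genes of metal binding were among the largest rises. Metallothioneins are small proteins that bind zinc, copper and cadmium. Zinc, through the metal response factor MTF1, and glucocorticoids are both known to induce Mt1 and Mt2, and MTF1 is also known to induce Slc30a1, which exports zinc from the cell. The 250 bases before the annotated starts of these 3 genes are shown because all 3 rose. They are from RefSeq (GRCm38.p6, plus strand, 5′ to 3′), with matches to the core of the metal response element in capitals.
Mt1 (chr8:94178839-94179088): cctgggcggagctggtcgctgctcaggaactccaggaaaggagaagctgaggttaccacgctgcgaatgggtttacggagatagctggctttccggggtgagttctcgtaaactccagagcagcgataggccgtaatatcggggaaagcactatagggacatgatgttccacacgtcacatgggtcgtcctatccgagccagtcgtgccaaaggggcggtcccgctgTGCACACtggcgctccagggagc
Mt2 (chr8:94172368-94172617): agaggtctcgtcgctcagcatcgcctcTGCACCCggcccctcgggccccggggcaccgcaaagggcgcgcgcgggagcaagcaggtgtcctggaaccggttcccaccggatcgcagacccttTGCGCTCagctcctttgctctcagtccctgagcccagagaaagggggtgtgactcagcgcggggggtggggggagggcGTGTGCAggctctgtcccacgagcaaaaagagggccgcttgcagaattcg
Slc30a1 (chr1:191906531-191906780): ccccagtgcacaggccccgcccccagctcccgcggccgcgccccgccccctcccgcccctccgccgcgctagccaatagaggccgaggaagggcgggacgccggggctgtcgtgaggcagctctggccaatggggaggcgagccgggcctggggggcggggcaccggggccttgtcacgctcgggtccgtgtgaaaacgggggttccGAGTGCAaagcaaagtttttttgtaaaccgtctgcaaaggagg
The core was searched as TGCGCNC or TGCACNC on both strands, a choice made after the values were seen. Counting also the 50 bases after the start, Mt1 held 3 matches, Mt2 4 and Slc30a1 2. In Mt1 only 1 of the 3 lay before the annotated start. Bases beyond the windows were not searched, so these counts need not cover all elements of a gene. At least 1 match was found in 25.7% of 32851 such windows and at least 3 in 1.97%. Of 3369 tested genes with at least 1 match, 122 rose (3.62%) and 105 fell (3.12%), with a median difference of 0.04. With at least 3 matches, 14 of 319 rose (4.39%) and 9 fell (2.82%), with a median of 0.07. Over all 8703 tested genes that had a window the shares were 3.13% and 2.99%. A match is letters only and does not show binding.

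Mt2 had log2 signals of 13.73, 13.29, 14.98, 15.86 and 15.16 in filtered-air mice 1 to 5 and of 17.88, 18.12, 17.21, 17.69 and 17.53 in PM2.5 mice 1 to 5. Every PM2.5 mouse lay above every filtered-air mouse, and filtered-air mice 1 and 2 were the lowest. The difference was 3.08 ± 0.60, or 8.47-fold (adjusted p = 0.0052, limma). Mt1 read 14.83, 14.89, 15.73, 15.83 and 15.37 in filtered air and 17.61, 17.73, 16.94, 17.30 and 17.22 with PM2.5. Again the groups did not overlap (difference 2.03 ± 0.36, adjusted p = 0.0028). Slc30a1 was 7.77, 7.86, 7.70, 7.81 and 8.12 in filtered air and 9.07, 8.45, 8.63, 8.41 and 8.52 with PM2.5. PM2.5 mouse 1 was the highest, and the lowest PM2.5 mouse lay above the highest filtered-air mouse (difference 0.76 ± 0.18, adjusted p = 0.0167). These were the 3 of 21 tested metallothionein and zinc transporter genes that passed (14.3%, against 6.07% of all genes tested). The other 18 did not pass, and the list median was 0.04.

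The plot of 9 genes over all 4 groups sets these values beside those of the metformin mice. Metformin mice without PM2.5 spread widely in Mt1, Mt2 and Cirbp, and the mice with both treatments lay high in Mt1 and Mt2. Metformin mice 1 and 2, whose label names no PM2.5, were the highest of their group in Mt1, Mt2 (17.59 and 17.07), Cirbp (9.54 and 8.78) and Slc30a1 (8.70 and 8.58). They were the lowest in Chordc1 (10.64 and 10.70) and Tfrc (9.11 and 9.24), as the PM2.5 mice were low. They were also the lowest in Ppp1r3b (12.99 and 12.26) and Ppp1r3c (11.69 and 11.79). In Ppp1r3c all 5 metformin mice lay below every filtered-air mouse. In Hspe1 metformin mice 1 and 2 did not stand apart. The cause was not tested.

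**Figure D2:**
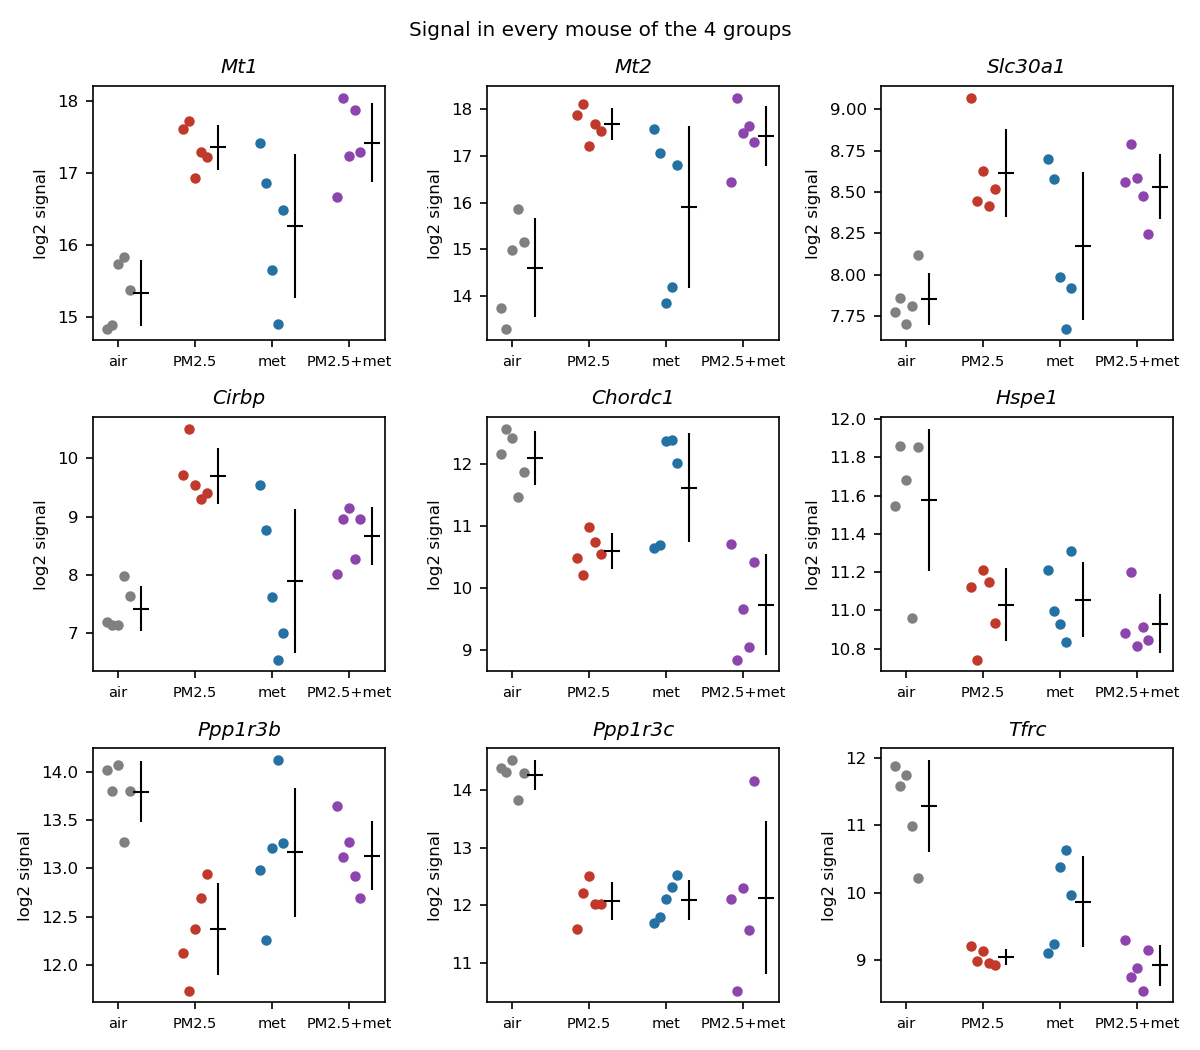
Log2 signal of every mouse (points) in filtered air (air), PM2.5, metformin (met) and PM2.5 with metformin (PM2.5+met) for 9 genes, with the mean and SD of the 5 mice beside each group; the axes differ between panels and do not start at 0. In the filtered-air and PM2.5 groups only Hspe1 has overlapping points.

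Cirbp and Chordc1 moved in opposite directions. Cirbp encodes a cold-inducible RNA-binding protein whose level is known to rise when body temperature falls and to follow its daily rhythm. Its log2 signals were 7.19, 7.13, 7.13, 7.99 and 7.64 in filtered-air mice and 9.71, 10.51, 9.54, 9.30 and 9.41 in PM2.5 mice. All PM2.5 mice stood above all filtered-air mice (difference 2.28 ± 0.41, 4.86-fold, adjusted p = 0.0034). Rbm3, the other cold-inducible RNA-binding gene listed, was at 0.39 ± 0.25 and did not pass (adjusted p = 0.357). Chordc1, a co-chaperone of HSP90 and a heat shock factor target, read 12.16, 12.57, 12.42, 11.47 and 11.88 in filtered air and 10.48, 10.22, 10.99, 10.75 and 10.55 with PM2.5. The groups did not overlap, and Chordc1 fell by 1.502 ± 0.37 (adjusted p = 0.0202). Hspe1, the mitochondrial co-chaperonin that works with Hspd1, fell by 0.55 ± 0.16 (adjusted p = 0.0446). Its values were 11.54, 11.86, 11.68, 10.96 and 11.85 in filtered air and 11.12, 10.74, 11.21, 11.15 and 10.93 with PM2.5, so that filtered-air mouse 4 lay among the PM2.5 mice. Chordc1 did not pass without PM2.5 mice 2 or 5 or without filtered-air mice 1, 2 or 3 (adjusted p = 0.0501 to 0.072). Hspe1 did not pass without PM2.5 mice 2 or 5 or without filtered-air mice 1, 2, 3 or 5 (adjusted p = 0.0894 to 0.141), or with no filter, after quantile normalization or in the fit of the 10 arrays alone (0.0599 to 0.0699).

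Heat shock factors bind inverted repeats of the unit GAA. The 250 bases before the start of Hspe1 (RefSeq, GRCm38.p6, plus strand) are shown because they hold 2 overlapping matches to an element of 3 such units, in capitals.
Hspe1 (chr1:55087898-55088147): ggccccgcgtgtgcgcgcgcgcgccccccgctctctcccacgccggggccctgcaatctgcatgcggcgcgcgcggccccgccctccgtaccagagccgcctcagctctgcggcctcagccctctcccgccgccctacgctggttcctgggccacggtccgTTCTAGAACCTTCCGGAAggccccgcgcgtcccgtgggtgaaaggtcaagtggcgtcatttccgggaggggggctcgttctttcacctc
The element was searched as GAANNTTCNNGAA and, for the other strand, TTCNNGAANNTTC, a choice made after the values were seen, and occurred in 0.603% of 32851 windows. Chordc1 held 3 overlapping matches around its start, the only window with 3. Of the 19 tested heat shock and cold-inducible genes 15 had a window, and 4 of these held a match. These 4 were Chordc1, Hspe1, Hsph1 and Hspd1, at -1.502, -0.55, -0.90 and -0.01, of which the last 2, named after their values were seen, did not pass (adjusted p = 0.291 and 0.956). Hspe1 and Hspd1 each held 2 matches. Whether these are the same bases was not examined, so the 4 may not be separate occurrences. Over all tested genes, 56 had a match, and of these 2 rose (3.57%) and 4 fell (7.14%), against 3.13% and 2.99% of the 8703 with a window, with a median of -0.05. In the whole heat shock and cold-inducible list 1 gene rose and 2 fell (15.8% passed, against 6.07% of all genes tested), 12 of 19 lay below 0, and the median was -0.36.

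Glycogen-targeting subunits fell. Ppp1r3b and Ppp1r3c bring protein phosphatase 1 to glycogen and thereby favour glycogen synthesis. Ppp1r3c read 14.39, 14.32, 14.54, 13.84 and 14.30 in filtered-air mice and 11.59, 12.21, 12.51, 12.03 and 12.02 in PM2.5 mice. No PM2.5 mouse reached the filtered-air range, and the fall was 2.20 ± 0.40, or 4.61-fold (adjusted p = 0.0036). Ppp1r3b read 14.02, 13.80, 14.07, 13.27 and 13.80 and 12.13, 11.73, 12.38, 12.69 and 12.94. The groups were again apart, with a fall of 1.42 ± 0.27 (adjusted p = 0.0051). Pck1, the rate-limiting enzyme of glucose synthesis and a member of the same list, rose by 1.26 ± 0.20 (adjusted p = 0.0019). It is also a glucocorticoid target. Of the 24 tested genes of glucose synthesis and use 2 rose and 2 fell (16.7% passed, against 6.07% of all genes tested). The median of 0.02 became -0.01 after median centring, so the list as a whole has no settled direction.

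Txnip, a thioredoxin-binding arrestin that limits glucose uptake, rose from 13.05 ± 0.18 to 14.98 ± 0.34 (SD, n = 5). Its values were 13.04, 13.18, 12.97, 13.26 and 12.79 in filtered air and 15.02, 15.25, 14.75, 14.53 and 15.34 with PM2.5. All 5 PM2.5 mice were above the highest filtered-air mouse (difference 1.93 ± 0.34, adjusted p = 0.0031). Pdk4, the kinase that shuts pyruvate out of the mitochondrial citrate cycle, rose by 1.66 ± 0.41 (adjusted p = 0.0202), and PM2.5 mouse 3 lay within the filtered-air range. Pdk4 did not pass without PM2.5 mice 2 or 5 or without filtered-air mouse 3 (adjusted p = 0.0511 to 0.0769). Slc2a1, the glucose transporter GLUT1 and a hypoxia-induced gene, rose by 1.13 ± 0.25 (adjusted p = 0.0114). It was the 1 of 16 tested hypoxia-induced genes that passed (6.25%, against 6.07% of all genes tested), and that list had a median of 0.19.

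Of 26 tested genes of insulin, FoxO and growth hormone signalling 3 rose and 0 fell (11.5% passed, against 6.07% of all genes tested), with a median of 0.22. The 3 were Irs2, an adaptor of the insulin receptor, Insr, the receptor itself, and Foxo1, the transcription factor that insulin holds inactive. Irs2 read 6.23, 6.58, 7.30, 6.47 and 6.81 in filtered air and 7.56, 7.79, 7.58, 8.04 and 7.74 with PM2.5. The groups did not overlap, although filtered-air mouse 3 came close (difference 1.06 ± 0.27, adjusted p = 0.0246). Insr rose by 0.64 ± 0.18 (adjusted p = 0.0346) and Foxo1 by 0.80 ± 0.22 (adjusted p = 0.0356). Irs2 did not pass without PM2.5 mice 2 or 5 or without filtered-air mice 1 or 2 (adjusted p = 0.0541 to 0.0784). Insr did not pass without PM2.5 mice 2, 3 or 5 or without filtered-air mice 1, 2 or 5 (adjusted p = 0.0503 to 0.109). Foxo1 did not pass without PM2.5 mice 2, 3 or 5 or without filtered-air mice 1 or 2 (adjusted p = 0.0509 to 0.114), or in the fit of the 10 arrays alone (0.0562). Igfbp1, a FoxO target, was at 0.72 ± 0.35 (adjusted p = 0.215), and Igf1, the growth factor driven by growth hormone, at -0.03 ± 0.10 (adjusted p = 0.892). Growth hormone rhythm also sets the sex bias of liver genes. Of 17 tested male-biased genes only Nudt7, a peroxisomal coenzyme A hydrolase, fell (-1.23 ± 0.28, adjusted p = 0.0125), and its call was lost without PM2.5 mouse 2 (adjusted p = 0.0522). The median of that list was -0.14, and of 18 female-biased genes 0 passed, with a median of 0.11.

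Some genes listed with fat burning rose. In the list of fatty acid oxidation and ketogenesis 6 of 36 tested genes rose and 0 fell (16.7% passed, against 6.07% of all genes tested), with a median of 0.28. The 6 included Plin4, Cpt1a, Creb3l3, Pdk4 and Acot1. Enzymes of the oxidation steps such as Acadm (-0.13, adjusted p = 0.731), Acadvl (-0.09, 0.797) and Hadha (0.14, 0.476) did not pass. These 3 were named after their values were seen. Plin4, a lipid droplet coat protein, read 4.14, 4.57, 4.25, 5.36 and 4.47 in filtered-air mice and 6.65, 7.68, 6.05, 6.20 and 7.47 in PM2.5 mice. The filtered-air mean lies at the background of 4.49, so that the rise of 2.25 ± 0.37 (adjusted p = 0.002) does not measure its full size. Acot1, a fatty acyl-CoA thioesterase, rose by 1.78 ± 0.46 (adjusted p = 0.0262), but PM2.5 mouse 4 lay inside the filtered-air range. Cpt1a, which loads fatty acids onto carnitine, rose by 1.08 ± 0.23 (adjusted p = 0.0097), again with PM2.5 mouse 4 within the range of filtered air. Acot1 did not pass without PM2.5 mice 2 or 5 or without filtered-air mice 1 or 5 (adjusted p = 0.058 to 0.0964). Hilpda, an inhibitor of droplet lipase, rose by 0.90 ± 0.21 (adjusted p = 0.0149), with all PM2.5 mice above all filtered-air mice, and lost its call without PM2.5 mouse 2 (adjusted p = 0.0628). It and Plin4 were the 2 of 24 genes of fatty acid uptake and droplets that passed (8.33%, against 6.07% of all genes tested). That list had a median of 0.18. Among 21 apolipoprotein and lipoprotein genes 2 rose, Scarb1, the HDL receptor (0.79 ± 0.19, adjusted p = 0.0179), and Lcat, which esterifies plasma cholesterol (0.69 ± 0.19, adjusted p = 0.0366). The list median was 0.10, and 9.52% of its genes passed, against 6.07% of all genes tested. Scarb1 did not pass without PM2.5 mice 2 or 5 or without filtered-air mouse 2 (adjusted p = 0.0529 to 0.0663). Lcat did not pass without PM2.5 mice 2 or 5 or without filtered-air mice 1, 2, 3 or 5 (adjusted p = 0.065 to 0.12), or with no filter (0.0511).

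Nr1i2 and Nr1i3, receptors that sense foreign compounds, rose. Nr1i2 (PXR) and Nr1i3 (CAR) pair with the retinoid X receptor and switch on enzymes that clear drugs, bile acids and steroids. Nr1i2 read 10.03, 9.92, 10.25, 9.91 and 9.76 in filtered air and 11.08, 11.28, 10.79, 10.61 and 10.95 with PM2.5. Its groups lay clearly apart (difference 0.97 ± 0.14, 1.96-fold, adjusted p = 0.000832). Nr1i3 read 11.98, 11.85, 12.22, 11.70 and 11.55 and 12.77, 13.38, 12.66, 12.39 and 12.998. Here too no PM2.5 mouse overlapped with filtered air (difference 0.98 ± 0.20, adjusted p = 0.0064). Rxra, named after its value was seen, rose by 0.82 ± 0.25 (adjusted p = 0.0491), and Pparg, the lipid-storing receptor, fell by 0.73 ± 0.21 (adjusted p = 0.0475). Rxra did not pass without PM2.5 mice 1, 2, 3 or 5 or without filtered-air mice 1, 2, 3 or 5 (adjusted p = 0.0537 to 0.155), or with no filter, with the filter at the 40th percentile, after median centring or with the negative-control covariate (0.0515 to 0.0694). Pparg did not pass without PM2.5 mice 1, 2, 4 or 5 or without filtered-air mice 1, 2, 3 or 5 (adjusted p = 0.0582 to 0.122), or with no filter or with the negative-control covariate (0.0556 to 0.0664). The other 23 of 27 tested nuclear receptors and liver transcription factors did not pass, and the list median was -0.04.

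A textbook target enzyme of each receptor did not pass. Cyp2b10, known as a CAR target, read 15.31, 15.21, 15.29, 15.17 and 14.82 in filtered air and 15.39, 15.40, 15.64, 15.47 and 15.60 with PM2.5. All PM2.5 mice lay above all filtered-air mice, with a difference of 0.34 ± 0.21 (adjusted p = 0.343). Cyp3a11, known as a PXR target, was at 0.08 ± 0.10 (adjusted p = 0.672). Its means were 18.45 in filtered air and 18.53 with PM2.5. The highest value on any array was 19.03, so a rise of Cyp3a11 could be understated. Of 40 tested cytochrome P450 genes of families 1 to 3 only Cyp2j9 rose (2.5% passed, against 6.07% of all genes tested). Cyp2j9 is of the arachidonic acid epoxygenase subfamily. It read 9.71, 9.87, 9.43, 10.10 and 9.50 in filtered air and 11.32, 11.77, 11.38, 11.03 and 11.05 with PM2.5. The groups did not overlap (difference 1.59 ± 0.33, adjusted p = 0.0082), and the median of the 40 was 0.08. Near-identical P450 paralogs can share probes, so single members of this family are uncertain. Of 23 glucuronosyl and sulfo conjugating enzymes and 20 glutathione transferases 0 passed in limma, also 0 by direction, with medians of -0.21 and 0.03, and the latter median lay below 0 after median centring. Of 28 genes of bile acid synthesis and transport only Abcc3, an exporter of conjugates at the basolateral membrane, rose, from 13.86 ± 0.32 to 14.77 ± 0.38 (SD, n = 5; difference 0.92 ± 0.17, adjusted p = 0.0034). The list median was 0.06, and 3.57% of its genes passed, against 6.07% of all genes tested. Cyp7a1, the first enzyme of bile acid synthesis, was at -0.80 ± 0.38 (adjusted p = 0.203).

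Of the genes often examined after particle exposure, some passed and others did not. The aryl hydrocarbon receptor binds polycyclic aromatic compounds and induces Cyp1a1, Cyp1b1, Cyp1a2 and Tiparp. Ahr, its own gene, was at -0.19 (adjusted p = 0.749), a choice made after its value was seen. Cyp1a1 read 3.101 in filtered air and 3.28 with PM2.5 and Cyp1b1 3.35 and 3.04, so both were at background in both groups. Of the 4 genes of this list that were bright enough to test (Cyp1a2, Tiparp, Nqo1 and Ahr itself) 0 passed in limma, and their median was 0.17. Cyp1a2, high in liver, was at 0.09 ± 0.34 (95% interval -0.63 to 0.80) and Tiparp at 0.25 ± 0.14 (95% interval -0.05 to 0.54). NRF2 drives antioxidant genes, and of 33 such genes 2 rose and 1 fell, with a median of 0.10. In that list 9.09% passed, against 6.07% of all genes tested. The rises were Abcc3 and Aox1, an aldehyde oxidase (0.55 ± 0.16, adjusted p = 0.0477). The fall was that of Nfe2l2, the gene of NRF2 itself. It read 8.97, 9.34, 9.12, 8.12 and 9.28 in filtered air and 7.63, 7.62, 8.29, 8.48 and 7.94 with PM2.5, with filtered-air mouse 4 inside the PM2.5 range (difference -0.97 ± 0.27, adjusted p = 0.0369). Aox1 did not pass without PM2.5 mice 2, 3, 4 or 5 or without filtered-air mice 1, 2, 3, 4 or 5 (adjusted p = 0.0512 to 0.159), or with no filter, with the filter at the 40th percentile, after median centring, in the fit of the 10 arrays alone or with the negative-control covariate (0.0506 to 0.0664). Nfe2l2 did not pass without PM2.5 mice 1, 2 or 5 or without filtered-air mice 1, 2, 3 or 5 (adjusted p = 0.0657 to 0.118), or with no filter (0.0526). Nqo1, Hmox1 and Gclc, 3 textbook NRF2 targets, had differences of 0.35 ± 0.25, 0.36 ± 0.36 and 0.45 ± 0.21, none of which passed (adjusted p = 0.407, 0.571 and 0.201).

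Some clock genes rose. In the core clock, the factor made by Arntl (BMAL1) switches on Per genes, whose products switch it off, and Csnk1d phosphorylates PER proteins. Of 16 core clock genes 3 rose and 0 fell (18.8% passed, against 6.07% of all genes tested), with a median of 0.23. Arntl read 8.90, 9.66, 9.03, 9.08 and 9.16 in filtered air and 10.46, 10.46, 9.43, 10.56 and 10.36 with PM2.5. Of the PM2.5 mice only mouse 3 fell inside the filtered-air range (difference 1.09 ± 0.26, adjusted p = 0.0187). Per1, also a glucocorticoid target, read 3.84, 3.73, 5.20, 5.74 and 5.53 and 5.66, 6.54, 5.96, 6.46 and 6.68. Filtered-air mice 1 and 2 lay below the background of 4.49, which limits the measured rise of 1.45 ± 0.43 (adjusted p = 0.0477). Csnk1d rose by 0.52 ± 0.15 (adjusted p = 0.0409). Arntl did not pass without PM2.5 mice 2 or 5 or without filtered-air mouse 1 (adjusted p = 0.0514 to 0.0652). Per1 did not pass without PM2.5 mice 2, 3, 4 or 5 or without filtered-air mice 1, 2 or 3 (adjusted p = 0.0528 to 0.136), or with no filter, with the filter at the 40th percentile, after quantile normalization, after median centring or with the trend and robust options (0.05 to 0.0685). Csnk1d did not pass without PM2.5 mice 2 or 5 or without filtered-air mice 1, 2, 3 or 5 (adjusted p = 0.0729 to 0.141), or with no filter, after median centring or in the fit of the 10 arrays alone (0.0513 to 0.0612).

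Among the repressors of the clock, Per2 was at -0.46 ± 0.22 and Nr1d1 at 0.29 ± 0.25, and neither passed (adjusted p = 0.215 and 0.504). Dbp, a clock-driven transcription factor, read 13.19, 12.40, 13.22, 13.65 and 13.41 in filtered air and 11.56, 12.22, 13.14, 11.87 and 12.23 with PM2.5. The groups overlap, and its difference of -0.97 ± 0.32 did not pass (adjusted p = 0.0724), though it did in the fit of the 10 arrays alone (0.0471) and with the negative-control covariate (0.0178). Of 11 clock output genes 1 rose, and their median was 0.46. It was Alas1, the first enzyme of heme synthesis, at 0.88 ± 0.25 (adjusted p = 0.0425), which did not pass without PM2.5 mice 2, 3, 4 or 5 or without filtered-air mice 1, 2, 3 or 5 (adjusted p = 0.0506 to 0.13), or with no filter or with the negative-control covariate (0.0504 to 0.0609). Whether the groups were killed at the same hour is not given, so a shift in clock time and exposure cannot be told apart.

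Tfrc, the transferrin receptor that takes up iron, was among the largest falls. Its log2 signals were 11.88, 11.59, 11.75, 10.996 and 10.22 in filtered-air mice and 9.22, 8.995, 9.14, 8.97 and 8.93 in PM2.5 mice. Filtered-air mouse 5 was the lowest of its group, and all PM2.5 mice lay below it within a narrow range (difference -2.24 ± 0.29, 4.72-fold lower, adjusted p = 0.000288). Hamp, which encodes hepcidin, the hormone that restrains iron release, was at 0.40 ± 0.23 (adjusted p = 0.299). Of 31 iron and heme genes 1 rose (Alas1) and 1 fell (6.45% passed, against 6.07% of all genes tested), with a median of 0.16. Flvcr2, a membrane transporter first described for heme, stands outside that list and rose by 1.70 ± 0.33 (adjusted p = 0.0051). It read 5.13, 5.12, 6.04, 5.52 and 5.08 in filtered air and 7.46, 7.49, 7.21, 6.46 and 6.77 with PM2.5, with no overlap.

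Among genes of growth and DNA damage the largest change was in Cdkn1a. Cdkn1a, the gene of the p21 protein that halts the cell cycle, read 4.93, 7.91, 7.08, 6.50 and 6.28 in filtered air and 11.30, 12.86, 8.81, 10.67 and 11.69 with PM2.5. PM2.5 mouse 3 was the lowest of its group yet above every filtered-air mouse (difference 4.52 ± 0.91, adjusted p = 0.0067). It is a target both of p53 and of glucocorticoids. It was the only one of 15 tested p53 targets that passed (6.67%, against 6.07% of all genes tested). The list median was 0.05, and Mdm2, the p53 target that restrains p53, was at 0.05 ± 0.27 (adjusted p = 0.936). Of 17 immediate early genes 15 lay above 0, with a median of 0.23, and 2 rose. Myc, a growth factor-induced transcription factor, read 5.36, 5.45, 6.10, 5.81 and 5.64 in filtered air and 6.53, 6.41, 6.66, 6.93 and 7.15 with PM2.5. No value overlapped (difference 1.06 ± 0.24, adjusted p = 0.0122). Jun, a subunit of AP-1, rose by 1.29 ± 0.39 (adjusted p = 0.0491) and did not pass without PM2.5 mice 2, 4 or 5 or without filtered-air mice 1, 2, 3, 4 or 5 (adjusted p = 0.0529 to 0.143), or with no filter, with the filter at the 40th percentile, after median centring or with the trend and robust options (0.0513 to 0.0702). Of 23 genes of DNA replication and the cell cycle 18 lay below 0, with a median of -0.23. Only Mcm10, a replication initiation factor, fell (-0.75 ± 0.20, adjusted p = 0.0281), and it did not pass without PM2.5 mice 2 or 5 or without filtered-air mice 3 or 5 (adjusted p = 0.0624 to 0.0974).

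Inhba, which encodes the activin A subunit, was the 1 of 19 tested hepatokines that passed. It read 6.997, 8.19, 6.99, 6.89 and 8.33 in filtered-air mice and 5.35, 4.99, 5.82, 6.27 and 5.90 in PM2.5 mice. The highest PM2.5 mouse stayed below the lowest filtered-air mouse (difference -1.81 ± 0.38, adjusted p = 0.0092). The list median was 0.18, and 5.26% of its genes passed, against 6.07% of all genes tested. Fgf21, a fasting hormone, was at 1.06 ± 0.52 and did not pass (adjusted p = 0.215). A further fixed gene, Gdf15, was not analysed here.

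Autophagy, by which cells digest their own contents, had 4 of 28 genes higher and 0 lower (14.3% passed, against 6.07% of all genes tested), with a median of 0.13. Atg2a, which transfers lipid to the growing autophagosome, read 4.99, 5.64, 5.72, 5.36 and 6.06 in filtered air and 6.40, 6.90, 7.09, 6.08 and 6.67 with PM2.5. The groups came close but did not overlap (difference 1.07 ± 0.21, adjusted p = 0.0051). Gabarapl1 and Map1lc3b, which coat the autophagosome, rose by 0.57 ± 0.15 and 0.68 ± 0.19 (adjusted p = 0.0264 and 0.0344), and Wipi1, which marks its site of birth, by 0.66 ± 0.18 (adjusted p = 0.0299). Map1lc3b was named after its value was seen. Gabarapl1 did not pass without PM2.5 mice 2 or 5 or without filtered-air mice 1, 3 or 5 (adjusted p = 0.0542 to 0.0928). Map1lc3b did not pass without PM2.5 mice 2, 4 or 5 or without filtered-air mice 1, 3 or 5 (adjusted p = 0.069 to 0.118). Wipi1 did not pass without PM2.5 mice 1 or 2 or without filtered-air mice 1, 2, 3 or 4 (adjusted p = 0.0538 to 0.109).

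Genes of protein folding and of the integrated stress response passed at about the share of all genes tested. Herpud1, a ubiquitin-domain protein of degradation at the endoplasmic reticulum, read 15.18, 14.73, 14.66, 15.27 and 14.81 in filtered air and 15.67, 16.02, 15.51, 15.96 and 16.22 with PM2.5. All PM2.5 mice lay above all filtered-air mice (difference 0.95 ± 0.17, adjusted p = 0.0033). It was the 1 of 23 genes of that compartment that passed (4.35%, against 6.07% of all genes tested). Of the 23, 17 lay below 0, with a median of -0.12. The chaperone Hspa5 (BiP) was at -0.51 ± 0.22 (adjusted p = 0.167) and passed only in the fit of the 10 arrays alone (0.0375). In the integrated stress response 1 of 20 genes rose (5% passed, against 6.07% of all genes tested), and the median was 0.14. It was the amino acid transporter subunit Slc3a2 (0.58 ± 0.16, adjusted p = 0.034). Slc3a2 did not pass without PM2.5 mice 2 or 5 or without filtered-air mice 1, 2 or 5 (adjusted p = 0.0522 to 0.111), or in the fit of the 10 arrays alone (0.0529). Ddit3 (CHOP), the pro-death factor of this response, was at -0.43 ± 0.19 (adjusted p = 0.172).

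Mitochondrial ribosomal proteins, which translate the mitochondrial genome, had 4 of 76 members lower and 0 higher (5.26% passed, against 6.07% of all genes tested). Of the 76, 60 lay below 0, with a median of -0.26. Mrpl42 read 14.44, 14.67, 14.57, 13.99 and 14.26 in filtered air and 13.96, 13.41, 13.90, 13.84 and 13.50 with PM2.5, with a fall of 0.66 ± 0.15 (adjusted p = 0.0145). The groups did not overlap, by a narrow margin. Mrpl50, Mrpl47 and Mrpl15, the last named after its value was seen, fell by 0.70 ± 0.17, 0.64 ± 0.17 and 0.47 ± 0.14 (adjusted p = 0.0216, 0.0272 and 0.0454). These calls were not stable to the mice in the fit, and the list had 0 to 9 members passing when each mouse was left out. Mrpl42 did not pass without PM2.5 mice 2 or 5 (adjusted p = 0.0506 to 0.0602). Mrpl50 did not pass without PM2.5 mice 2 or 5 or without filtered-air mice 2, 3 or 5 (adjusted p = 0.0541 to 0.0835). Mrpl47 did not pass without PM2.5 mice 2 or 5 or without filtered-air mice 1, 2, 3 or 5 (adjusted p = 0.0549 to 0.0938). Mrpl15 did not pass without PM2.5 mice 1, 2, 3 or 5 or without filtered-air mice 1, 2, 3 or 5 (adjusted p = 0.0502 to 0.124), or with no filter or in the fit of the 10 arrays alone (0.0612 to 0.0613). Of 54 cytosolic ribosomal proteins 0 passed in limma, with a median of -0.09. Of 36 proteasome subunits only the ATPase Psmc6 fell (-0.61 ± 0.16, adjusted p = 0.0309), with a list median of -0.12, and it did not pass without PM2.5 mice 2, 4 or 5 or without filtered-air mice 1, 2, 3 or 5 (adjusted p = 0.053 to 0.105), or in the fit of the 10 arrays alone (0.0677). Respiratory chain subunits had medians of -0.31 over 35 genes of complex I (1 lower) and -0.20 over 41 genes of complexes II to V (3 lower). With each mouse left out in turn, 0 to 9 and 0 to 12 of them passed.

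Signals of inflammation were mixed. Of 27 tested acute-phase genes 4 rose and 0 fell (14.8% passed, against 6.07% of all genes tested), with a median of 0.17. The 4 were receptors, a transcription factor and a binding protein. Il1r1, the interleukin-1 receptor, read 10.48, 10.49, 10.22, 10.93 and 10.98 in filtered-air mice and 11.51, 12.62, 11.70, 12.30 and 11.69 in PM2.5 mice. The groups did not overlap (difference 1.34 ± 0.27, adjusted p = 0.0064). Il22ra1, the receptor for interleukin-22 on hepatocytes, stands outside the list and read 5.43, 6.23, 6.23, 6.33 and 6.28 in filtered air and 7.79, 8.60, 7.13, 8.13 and 8.08 with PM2.5. Filtered-air mouse 1 was low, and all PM2.5 mice were above all filtered-air mice (difference 1.85 ± 0.31, 3.6-fold, adjusted p = 0.002). Lbp, which binds bacterial lipopolysaccharide, rose by 1.04 ± 0.23 (adjusted p = 0.0114), Stat3, which acts downstream of the interleukin-6 and interleukin-22 receptors, by 0.76 ± 0.21 (adjusted p = 0.0339), and Il6ra, named after its value was seen, by 1.08 ± 0.29 (adjusted p = 0.034). Stat3 did not pass without PM2.5 mice 2 or 5 or without filtered-air mice 1, 2 or 3 (adjusted p = 0.0556 to 0.109). Il6ra did not pass without PM2.5 mice 2 or 5 or without filtered-air mice 1, 2 or 3 (adjusted p = 0.053 to 0.113). Saa1, a serum amyloid gene with strong acute-phase induction, was at -0.12 ± 0.94 (adjusted p = 0.953) with SDs of 1.73 and 1.63 in filtered air and PM2.5.

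Of 17 inflammatory cytokine and NF-kappaB genes 1 rose and 1 fell, with a median of 0.18, while 10 further members were too dim to test. Nfkbia, the inhibitor of NF-kappaB and one of its targets, rose by 0.81 ± 0.19 (adjusted p = 0.0154), and it did not pass without PM2.5 mouse 5 or without filtered-air mouse 1 (adjusted p = 0.0522 to 0.054). Birc3, a ubiquitin ligase of NF-kappaB signalling, read 12.72, 12.70, 12.93, 13.09 and 13.06 in filtered air and 10.97, 10.83, 11.72, 12.33 and 11.35 with PM2.5. All PM2.5 mice lay below all filtered-air mice, and PM2.5 mouse 4 was the closest (difference -1.46 ± 0.29, adjusted p = 0.0065). Zfp36l2, a protein that speeds the decay of AU-rich mRNA, stands outside these lists and rose by 1.55 ± 0.35 (adjusted p = 0.0133), with no overlap. Zfp36l2 did not pass without PM2.5 mouse 2 (adjusted p = 0.051). Of 25 interferon-induced genes 0 passed in limma and 19 lay below 0, with a median of -0.25. Of 33 coagulation and complement genes 2 rose, F5, coagulation factor V (0.60 ± 0.16, adjusted p = 0.0309), and Masp1, a protease of the lectin pathway (0.48 ± 0.14, adjusted p = 0.0448), with a median of 0.05. In that list 6.06% passed, against 6.07% of all genes tested. F5 did not pass without PM2.5 mice 2 or 5 or without filtered-air mice 1, 2, 3 or 5 (adjusted p = 0.0529 to 0.111), or in the fit of the 10 arrays alone (0.0657). Masp1 did not pass without PM2.5 mice 2, 4 or 5 or without filtered-air mice 1, 2, 3 or 5 (adjusted p = 0.0582 to 0.14), or with no filter, after median centring, in the fit of the 10 arrays alone or with the negative-control covariate (0.0505 to 0.0613).

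Markers of other liver cells were read for whole lists. The 22 tested markers of Kupffer cells and other macrophages had a median of 0.40, with 19 above 0 and 0 passing in limma. Their mean level was 8.84 to 9.55 in the filtered-air mice and 9.09 to 9.95 in the PM2.5 mice. The nearest to passing was the scavenger receptor Marco at 0.94 ± 0.28 (adjusted p = 0.0503), a choice made after seeing the values. It did pass in the fit of the 10 arrays alone (0.0382), with array weights (0.0157), with the trend and robust options (0.0464) and with the negative-control covariate (0.0105). Csf1r, the receptor of macrophage colony-stimulating factor, was at 0.97 ± 0.35 (adjusted p = 0.0928) and passed in the fit of the 10 arrays alone (0.0467) and with array weights (0.0238). Cd163, the haemoglobin scavenger receptor, was at 0.77 ± 0.26 (adjusted p = 0.0722) and passed with array weights (0.0258). Both were named after their values were seen. Clec4f, which among liver cells marks Kupffer cells, was at 0.13 ± 0.41 and Adgre1 at 0.18 ± 0.30 (adjusted p = 0.874 and 0.756). In whole tissue, more cells of a type and more RNA per cell cannot be told apart. The part of these cells in the inflammatory and acute-phase values above was not tested.

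Of 17 endothelial markers 1 rose, Kdr, the VEGF receptor 2 (0.54 ± 0.15, adjusted p = 0.0425), with a median of 0.30 and a mean level of 8.42 to 8.75 in filtered air and 8.61 to 8.94 with PM2.5. Kdr did not pass without PM2.5 mice 1, 2, 3 or 5 or without filtered-air mice 1, 2, 3, 4 or 5 (adjusted p = 0.0525 to 0.139), or with no filter or after median centring (0.0544 to 0.0587). Of 12 stellate cell and matrix markers 0 passed in limma, with a median of -0.13. Of 5 tested cholangiocyte markers Sox9 rose (0.87 ± 0.25, adjusted p = 0.0398) from a mean of 4.76 near background, and the list median was -0.01. Sox9 did not pass without PM2.5 mice 1, 2, 4 or 5 or without filtered-air mice 1, 4 or 5 (adjusted p = 0.0583 to 0.11), or with no filter, in the fit of the 10 arrays alone or with array weights (0.0561 to 0.0703). Fat cell markers had 5 tested members with Pparg as the 1 that fell and a median of -0.27. Blood cell and pancreas markers were mostly at background: 3 of 12 neutrophil markers, 3 of 14 T and NK cell markers, 1 of 7 B cell markers, 3 of 4 red cell markers and 2 of 11 pancreas acinar markers were bright enough to test, and 0 of these passed in limma. Their medians were 0.09, 0.47, -0.03, 0.12 and -0.05. Hepatocyte markers had 0 of 14 passing, with a median of 0.03.

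Genes of nitrogen metabolism and liver zonation passed at differing shares. Of 39 genes of amino acid breakdown and the urea cycle 29 lay above 0, with a median of 0.13. Among them 1 rose and 1 fell (5.13% passed, against 6.07% of all genes tested). Slc7a2, the importer of arginine and lysine, read 13.25, 12.98, 13.64, 14.09 and 13.78 in filtered air and 14.29, 14.57, 14.39, 14.40 and 14.59 with PM2.5. All PM2.5 mice were above all filtered-air mice and closer together (difference 0.89 ± 0.20, adjusted p = 0.0126). Kynu, kynureninase of tryptophan breakdown, fell by 0.57 ± 0.14 (adjusted p = 0.0204), and it did not pass without PM2.5 mice 2 or 5 or without filtered-air mice 1 or 5 (adjusted p = 0.0515 to 0.0809). Hepatocytes near the portal vein and near the central vein use different genes. Of 17 periportal genes 3 rose (Pck1, Slc7a2 and Sox9), with a median of 0.16 (17.6% passed, against 6.07% of all genes tested). Of 17 pericentral genes 0 passed in limma, with a median of 0.05.

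**Figure D3:**
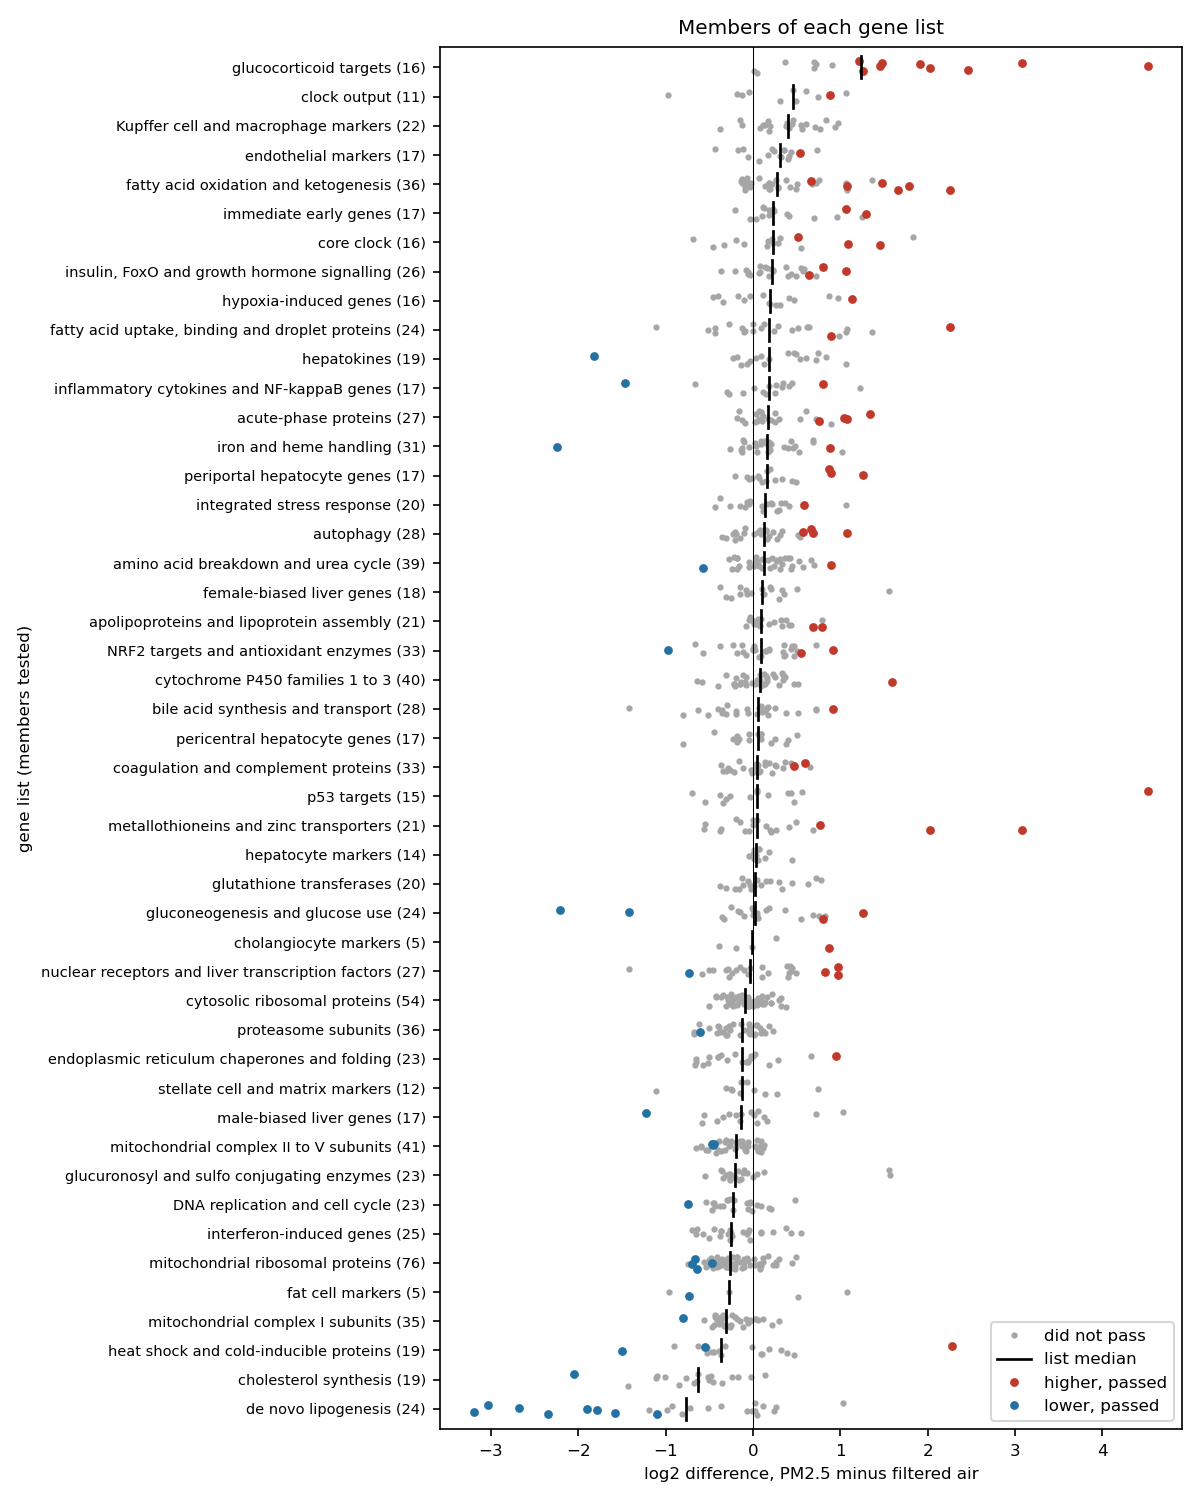
Log2 difference (PM2.5 minus filtered air) of every tested member of each list with at least 5 tested members; grey points did not pass, red rose and blue fell in limma, the black bar is the list median and the number tested stands in brackets. The lipogenic list (median -0.76) and the glucocorticoid list (median 1.24) lie at the ends, and most other medians lie within 0.5 of 0.

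Several of the largest changes lie outside every list. Anks4b, an ankyrin-repeat scaffold of epithelial microvilli, had the largest fall of the genes named by size. It read 11.56, 11.17, 11.29, 10.78 and 11.11 in filtered air and 8.31, 8.10, 8.99, 8.996 and 8.79 with PM2.5. The groups lay far apart (difference -2.55 ± 0.24, 5.84-fold lower, adjusted p = 2.91e-06). Rassf6, a Ras-association domain protein of the Hippo and apoptosis pathways, read 8.92, 8.53, 9.02, 8.85 and 9.01 and 7.02, 6.26, 6.82, 7.21 and 6.60. No PM2.5 mouse came within 1 log2 unit of filtered air (difference -2.08 ± 0.21, adjusted p = 8.94e-06). Rab30, a small GTPase of the Golgi, read 9.47, 10.44, 10.44, 10.44 and 10.51 in filtered air and 13.37, 12.77, 12.09, 11.57 and 12.12 with PM2.5. PM2.5 mouse 1 was the highest and filtered-air mouse 1 the lowest, with no overlap (difference 2.12 ± 0.41, adjusted p = 0.0051).

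Smaller moves in the same group of genes were those of Tor3a, a torsin-family ATPase of the endoplasmic reticulum, and Slc8b1, the mitochondrial sodium-calcium exchanger. Tor3a rose by 1.62 ± 0.34 (adjusted p = 0.0083) and Slc8b1 by 1.62 ± 0.37 (adjusted p = 0.0123), both with no overlap between the groups. Mblac2, an acyl-CoA hydrolase with a metallo-beta-lactamase fold, fell by 1.42 ± 0.24 (adjusted p = 0.002), Adh6-ps1, an alcohol dehydrogenase pseudogene, by 1.42 ± 0.22 (adjusted p = 0.0015), and Zfp760, a zinc finger gene, by 1.54 ± 0.24 (adjusted p = 0.0015). Their groups did not overlap either. A pseudogene can share probes with its parent family, so Adh6-ps1 is uncertain. Chrna4, a nicotinic acetylcholine receptor subunit, fell by 1.76 ± 0.40 (adjusted p = 0.0125) with overlapping groups, and its call was lost without PM2.5 mouse 2 (adjusted p = 0.0541). A4gnt, a mucin glycosyltransferase, read 6.24 in filtered air and 3.75 with PM2.5 and was not tested, as its mean over all 20 arrays lay below background.

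Gene families sharing a symbol stem were counted after the values were seen, for the 14 stems with at least 40 tested genes. Of 210 solute carriers (Slc), which move nutrients, ions and metabolites across membranes, 16 rose and 6 fell (10.5% together, against 6.07% of all genes tested), and the median was 0.14. Slc25a22, the mitochondrial glutamate carrier, rose by 1.37 ± 0.39 (adjusted p = 0.0425), Slc19a1, the folate carrier, by 1.37 ± 0.22 (adjusted p = 0.002), and Slc25a42, the mitochondrial coenzyme A carrier, by 1.21 ± 0.24 (adjusted p = 0.0055). The carnitine importer Slc22a5 rose by 1.26 ± 0.31 (adjusted p = 0.0203), and Slc25a30, another mitochondrial carrier, by 1.33 ± 0.35 (adjusted p = 0.0281). Slc66a2 fell by 1.19 ± 0.23 (adjusted p = 0.0058). These genes were chosen after their values were seen. Slc25a22 did not pass without PM2.5 mice 2 or 5 or without filtered-air mice 1, 2 or 3 (adjusted p = 0.0749 to 0.13), or with no filter, with the trend and robust options or with the negative-control covariate (0.051 to 0.0609). Slc25a30 did not pass without PM2.5 mice 2 or 5 or without filtered-air mice 1, 3 or 5 (adjusted p = 0.0526 to 0.0936). Slc22a5 did not pass without PM2.5 mouse 2 or without filtered-air mouse 1 (adjusted p = 0.0669 to 0.0818).

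Of 263 zinc finger genes (Zfp), mostly transcription repressors, 4 rose and 16 fell (7.6%), and the median was -0.12. Zfp54 read 9.17, 9.06, 9.08, 8.69 and 9.51 in filtered air and 8.40, 7.27, 8.16, 8.42 and 7.83 with PM2.5. All PM2.5 mice lay below all filtered-air mice (difference -1.08 ± 0.20, adjusted p = 0.0034). Zfp638 fell by 1.14 ± 0.27 (adjusted p = 0.016) and Zfp324 by 1.11 ± 0.22 (adjusted p = 0.0067), the latter to a mean near background, while Zfp646 rose by 0.81 ± 0.14 (adjusted p = 0.0026). These 4 were also chosen after their values were seen. Zfp638 did not pass without PM2.5 mice 2 or 5 or without filtered-air mouse 1 (adjusted p = 0.0506 to 0.0658). Of 52 Rab genes 5 rose and 1 fell (11.5%), of 91 Fam genes 4 rose and 5 fell (9.89%), and of 47 Wdr genes 0 passed in limma. In the other 9 stems 1.92% to 8.33% of the genes passed.

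The same particle contrast exists in the mice on metformin, which share no array with the 10 mice above, though both comparisons share 1 estimate of the spread per gene. There 2019 genes (18.9%) differed between PM2.5 with metformin and metformin alone, 1196 higher (11.2%) and 823 lower (7.7%). Of the 334 genes that rose without metformin 302 (90.4%) had a difference above 0 with it, against 52.3% of all genes tested. Of the 314 that fell 259 (82.5%) were below 0, against 47.7% of all genes tested. In the same direction 121 of the 334 rises passed with metformin (36.2% of them and 10.1% of the 1196), as did 105 of the 314 falls (33.4% of them and 12.8% of the 823). In the opposite direction 0 rises and 6 falls passed. Without mice 2 and 4 of the group with both treatments, 535 genes (5.01%) differed with metformin, 55 rises and 20 falls were shared, and 307 and 257 kept their sign. Without mice 2 and 5, which had the lowest mean correlations with their group, 1610 genes (15.1%) differed, 96 rises and 83 falls were shared, and 296 and 256 kept their sign. Without mouse 4 alone 1181 genes (11.1%) differed. These pairs were chosen after seeing the data. The interaction, which tests whether the particle difference itself differed with metformin, was called for 26 genes (0.243%).

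The 24 changes named by size on the first comparison had varied values with metformin. They leave out lipogenic, cholesterol and glucocorticoid genes and predicted or provisional names, some of which changed more. Il22ra1 was at 1.68 with metformin (adjusted p = 0.0016), Cyp2j9 at 1.58 (0.0034), Plin4 at 1.84 (0.003) and Chordc1 at -1.88 (0.0024). These passed in both comparisons. Ppp1r3c was at 0.05 (0.948), Ppp1r3b at -0.03 (0.942), Rab30 at -0.01 (0.994) and Txnip at -0.15 (0.796) with metformin, where none of these 4 passed. Ppp1r3c had means of 14.28 in filtered air, 12.07 with PM2.5, 12.09 with metformin and 12.13 with both. In the same order Ppp1r3b had 13.79, 12.37, 13.17 and 13.13, Rab30 10.26, 12.38, 11.44 and 11.43, and Txnip 13.05, 14.98, 14.45 and 14.29. In all 4 the mean with metformin alone thus lay between those of filtered air and PM2.5. Tfrc was at -0.94 (0.0292) and Cirbp at 0.77 (0.197). Of these genes and Anks4b, the interaction passed for Anks4b alone. The difference of Anks4b was -2.55 without metformin and -0.57 with it (interaction 1.98 ± 0.34, adjusted p = 0.0149).

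**Figure D4:**
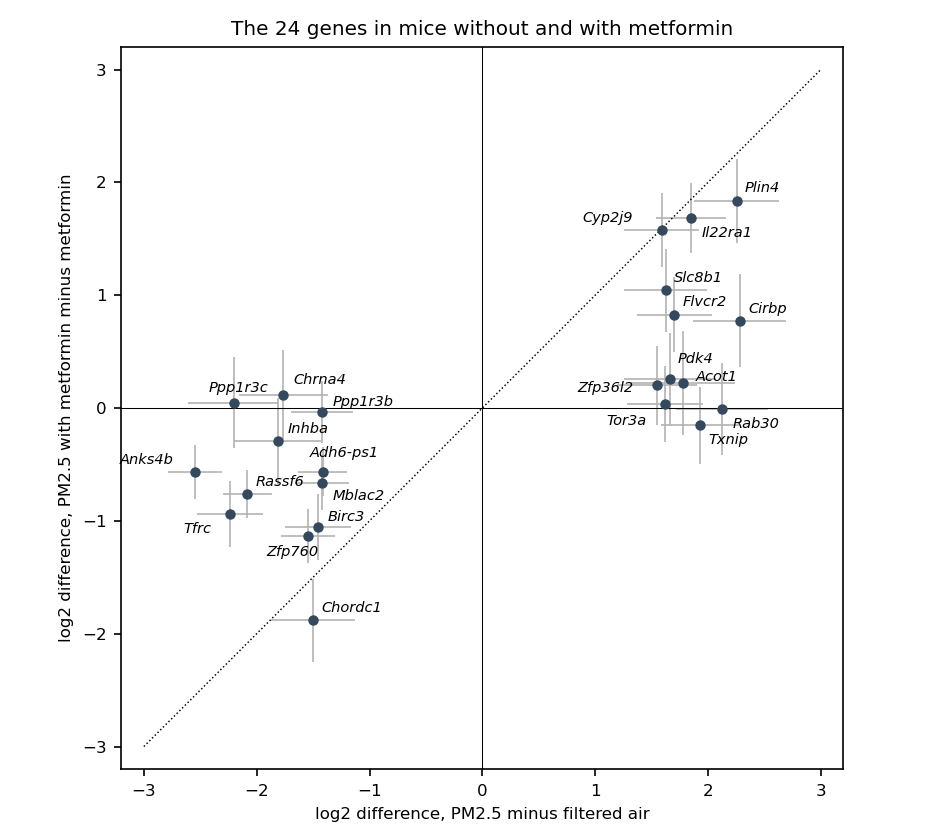
Log2 difference of PM2.5 against filtered air (horizontal) and of PM2.5 with metformin against metformin (vertical) for the 24 largest changes outside the lipogenic, cholesterol and glucocorticoid genes and predicted or provisional names. Bars are standard errors and the dotted line marks equal differences. Points near the horizontal axis, such as Ppp1r3c, Rab30 and Txnip, had differences near 0 on metformin, and Il22ra1, Cyp2j9 and Plin4 lie near the dotted line.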

How the data were processed

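Total liver RNA of 20 male ob/ob mice (4 groups of 5) was read on single-channel Affymetrix arrays. The deposited values are log2 signals of probe sets, and the submitters' processing notes name Affymetrix Expression Console. Its version, the summary method and the normalization are not given in the sources used here. The series text names another array type, and the probe set identifiers were named through the annotation that holds them.

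Of 28846 probe sets 6640 were controls. Of the other 22206, 19572 had 1 gene, 0 several and 2634 none, and all 19572 symbols matched RefSeq. For 55 of 19505 genes the probe set with the highest mean was used. Genes were tested where the mean over 20 arrays lay above 4.49, the mean median of 5222 negative controls, which left 10684 genes and set 8821 aside as dim. Arrays have no read depth, and their number limits the precision.

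limma 3.58.1 in R 4.3.3 fitted 4 group means to all 20 arrays with eBayes (16 residual and 5.44 prior degrees of freedom), two-sided, with Benjamini-Hochberg adjustment over 10684 genes. A group that varies more than the others gets too small a standard error, since each gene has 1 variance. The script was tested on simulated data. Alternatives were no filter, filters at the 40th percentile and at the 95th percentile of the negative controls, quantile normalization, median centring, the 10 arrays alone, array weights, trend and robust eBayes, the mean of probe sets, a negative-control covariate, a 1.5-fold minimum and each mouse left out.

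Gene lists came from general knowledge. Named are the 12 largest rises and 12 largest falls (passing over predicted genes, provisional names, and lipogenic, cholesterol and glucocorticoid genes), up to 3 passing members with the lowest p of each list, and a fixed set. Other names are marked as chosen after their values were seen. Groups, lists, tests and rules were chosen with earlier results of these data known, so they are not independent of them. Lists are described by counts and medians, with no set test. Promoter windows of RefSeq (GRCm38.p6, 250 bases before and 50 after the start) were found for 88 of 116 named genes.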

Additional observations from a re-analysis of the deposited data

Results flagged for a closer look

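In 10 of 232 groups of 5 mice (116 named genes in 2 groups) 1 mouse stood apart by Dixon's test (critical value 0.71), and chance gives about 1 in 20. In filtered air, Adgre1 was 9.28 in mouse 4 against 8.57 to 8.72 in the others. Creb3l3 was 13.37 in mouse 3 against 13.002 to 13.09, and Fgf21 was 7.05 in mouse 2 against 4.56 to 5.13. Cyp2b10 was 14.82 in mouse 5 against 15.17 to 15.31. Mouse 1 was low in Il22ra1, at 5.43 against 6.23 to 6.33, and in Rab30, at 9.47 against 10.44 to 10.51. Among the PM2.5 mice, mouse 1 was at 19.005 for Alb against 18.87 to 18.90 and at 8.89 for Nr1d1 against 9.56 to 9.74. PM2.5 mouse 3 was at 9.43 for Arntl against 10.36 to 10.56 and at 7.001 for Zfp646 against 7.21 to 7.28. Without these mice in turn, Il22ra1, Rab30 and Zfp646 passed, while the calls of Arntl and Creb3l3 were lost without other mice.

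In 3 named genes the PM2.5 difference differed with metformin (interaction, limma). Anks4b had an interaction of 1.98 ± 0.34 (adjusted p = 0.0149), with differences of -2.55 without and -0.57 with metformin. Nr1i2 had -0.998 ± 0.19 (adjusted p = 0.0323), with 0.97 without and -0.03 with metformin. Creb3l3, a liver transcription factor of fat metabolism, had -1.07 ± 0.23 (adjusted p = 0.0464), with 0.66 and -0.41. Anks4b had means of 11.18 in filtered air, 8.64 with PM2.5, 10.23 with metformin and 9.66 with both. In the same order Nr1i2 had 9.97, 10.94, 10.71 and 10.68, and Creb3l3 13.10, 13.76, 14.13 and 13.72. Without metformin Creb3l3 rose (adjusted p = 0.0187), and that call was lost without PM2.5 mice 2 or 5 or without filtered-air mouse 1 (adjusted p = 0.0501 to 0.0734).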

How the results depend on the processing

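The count of 648 genes was 1416 with array weights (700 higher and 716 lower, with 150 genes of the lists in place of 68). Leaving out mice 2 and 4 of the group with both treatments, chosen after seeing the data, gave 982 (497 lower) and 75 shared genes in place of 226, and leaving out mice 2 and 5 gave 887 and 179. The other settings that kept all mice gave 491 to 793. Leaving out each mouse gave 206 to 789 genes (102 to 412 higher, 104 to 423 lower), 25 to 104 genes of the lists and 152 to 251 shared genes. The share of rises among called genes, 51.5%, was 46% after quantile normalization and 42.6% after median centring. Of 90 named genes that passed, 41 did so without each mouse of the 2 groups in turn. Alb, which did not pass, was at -0.0148 after median centring. With each mouse left out, differences that turned sign ran from -0.0037 to 0.0301 in Alb, -0.0549 to 0.0114 in Igf1, -0.0458 to 0.2598 in Mdm2, -0.724 to 0.472 in Saa1 and -0.0041 to 0.1981 in Cyp1a2, none of which passed. The causes were not tested. Signal near background can limit the sizes of several genes, among them Plin4, Per1, Sox9, Marco, Chrna4, Flvcr2 and Zfp324. With the filter at the 95th percentile of the negative controls, 84 of the 116 named genes remained, each with the same outcome. No paired analysis was possible because the labels give no numbers shared between groups.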
